A study of Saccharomyces cerevisiae with 17 samples.

Results

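RSC is the abundant, essential chromatin remodeller of budding yeast, and 10 of its subunit genes were followed here through counts of RNA 5′ ends. The 10 genes, STH1, RSC1, RSC2, RSC3, RSC4, RSC6, RSC8, RSC9, RSC30 and RSC58, were taken by their identifiers, and all 10 were listed in each of 3 tables of 5797 gene identifiers. RSC uses ATP to slide and evict nucleosomes. It is known for keeping the nucleosome-depleted regions of promoters open, the regions flanked by the H2A.Z-bearing nucleosome that the series set out to map. Sth1 is the motor of the complex. The other subunits read acetylated histone tails, bind DNA or hold the assembly together.

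The series holds 17 samples of Saccharomyces cerevisiae strain BY4741, a MATa laboratory strain without working HIS3, LEU2, MET15 and URA3 genes, grown in YPD to an OD600 of 0.8. The 5 samples with values were all wild type and were made by SMORE-seq, which ligates an adapter to RNA 5′ ends. The ribo depletion group (3 samples) shared 1 table, the group that was PolyA-selected and Tap-treated had 1 library, and the group that was PolyA-selected, CIP-treated and Tap-treated had 1 library. The other 12 samples, tagged or deleted for the H2A.Z gene HTZ1 or carrying tagged Swr1 or Ino80, were not used. Tobacco acid pyrophosphatase (Tap) makes capped RNA ligatable by cutting its cap. A prior step with calf intestinal phosphatase (CIP) takes the phosphate from uncapped ends. The last groups are called TAP and CIP/TAP below. No enzyme is named in the labels of the ribo depletion samples, so a difference in enzyme treatment and a difference in RNA selection cannot be told apart in any comparison with that table. The tables held 2821480 counts in ribo depletion, 864536 in TAP and 1097457 in CIP/TAP. No group had replicate values, so no test between groups was run. Intervals are exact two-sided 95% intervals for counting error only. For a count of 0, "at least" and "up to" use a floor of 3 counts per table, which is a one-sided limit, and the two-sided limit, which is wider, is given beside it.

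Counts under the RSC identifiers were concentrated in RSC9 and RSC8. These 2 genes held 97.5% of the members' 8288 counts in ribo depletion, 85.1% of 859 in TAP and 91.7% of 1126 in CIP/TAP. At least 10 counts were found for 4 of the 10 members, whichever table was read. The share of all identifiers reaching 10 counts was 31.5% in ribo depletion, 37.1% in TAP and 33.0% in CIP/TAP, so the members' share of 40% was near the background. Only RSC8 and RSC9 reached 10 counts in all 3 tables, 4 members were below 10 in all of them, and RSC1 had no count at all. The shares of all identifiers in these joint classes were not computed, so the classes are not read as a trait of RSC genes. A count of 0 was common, with 58.5% of all identifiers at 0 in ribo depletion, 52.7% in TAP and 55.6% in CIP/TAP. At least 1 count was found for 9 members in ribo depletion, 5 in TAP and 4 in CIP/TAP, where 41.5%, 47.3% and 44.4% of all identifiers had one.

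The setting of each gene was described first, because counts in these tables differed by the nearest gene upstream. Over all identifiers with a divergent neighbour (opposite strand, transcribed away) within 500 bp, 76.6% had at least 10 TAP counts (74.4 to 78.8%, 1485 identifiers). With a tandem neighbour (same strand) at any distance the share was 22.5% (20.9 to 24.0%, 2831 identifiers). With a divergent neighbour farther than 500 bp it was 25.5% (23.2 to 27.8%, 1469 identifiers). The class that stood apart was thus that of close divergent neighbours, not of divergent neighbours as such. Tandem neighbours were not split by distance, so close tandem neighbours were not compared with close divergent ones. A count listed under an identifier is therefore not described here as the expression of that gene. RSC8, RSC9 and STH1 had a divergent neighbour, 193, 387 and 347 bp away. The other 7 members had a tandem neighbour, 212 to 519 bp away. A divergent neighbour within 500 bp was found for 25.7% of all identifiers with a neighbour.

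**Figure D1:**
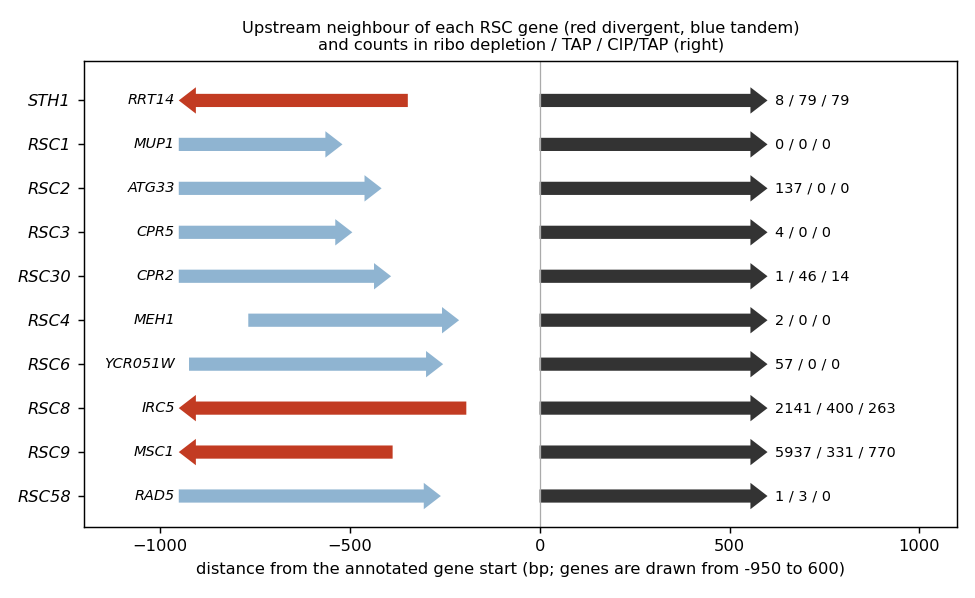
Upstream neighbours of the 10 RSC genes, with red arrows for divergent and blue arrows for tandem neighbours. Distances from each annotated start are to scale (horizontal axis, bp). The RSC genes and long neighbours are cut off, so their full lengths are not shown. Numbers at the right are the counts, with ribo depletion first, then TAP, then CIP/TAP. The 3 genes with red neighbours include RSC9 and RSC8, which had the highest counts.

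STH1 encodes the ATPase motor of RSC (YIL126W, R64 chromosome IX, 117992 to 122071, W strand). It had 8 counts in ribo depletion, 79 in TAP and 79 in CIP/TAP. Its level was thus low after ribo depletion and higher in both poly(A) libraries, at 2.84 CPM (counts scaled by the table total; 1.22 to 5.59), 91.4 CPM (72.3 to 113.9) and 72.0 CPM (57.0 to 89.7). Other identifiers with a divergent neighbour 297 to 397 bp away, 370 in number, had median counts of 116.5, 97 and 116 in the same order. STH1 lay below all of these medians, and 25.9%, 45.9% and 43.0% of these identifiers had fewer counts. The interval of its TAP count, 62.5 to 98.5, included the TAP median.

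RSC1 and RSC2 are bromodomain paralogs that take each other's place in separate forms of the complex. RSC1 (YGR056W, chromosome VII, 601661 to 604447) was at 0 in all 3 tables, which allows up to 1.06 CPM in ribo depletion, 3.47 CPM in TAP and 2.73 CPM in CIP/TAP (two-sided limits 1.31, 4.27 and 3.36). RSC2 (YLR357W, chromosome XII, 841331 to 844000) had 137 counts after ribo depletion, and neither poly(A) library had any (0 and 0). The paralogs thus differed in ribo depletion, where RSC2 stood at 48.6 CPM (40.8 to 57.4), and could not be told apart at this depth in TAP or CIP/TAP. The last 514 bases of RSC2 overlap YLR358C on the opposite strand, which had 1496, 2815 and 2885 counts, in the order ribo depletion, TAP, CIP/TAP. No source used here gives the strand setting of the counting, so reads of these overlapping genes cannot be told apart. Their counts ran in opposite directions, with RSC2 at 0 in both libraries where YLR358C was higher.

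RSC3 and RSC30 encode zinc cluster proteins that bind DNA and direct RSC to CG-rich promoter sites. RSC3 (YDR303C, chromosome IV, 1068729 to 1071386) had 4 counts after ribo depletion and 0 in either poly(A) library. RSC30 (YHR056C, chromosome VIII, 215183 to 217834) had 1 count after ribo depletion, 46 in TAP and 14 in CIP/TAP. RSC3 was therefore near the floor throughout, while RSC30 reached 53.2 CPM in TAP (39.0 to 71.0), the highest TAP level among the 7 members with a tandem neighbour. In TAP 93.1% of all identifiers with a tandem neighbour had fewer counts than RSC30. RSC30 lies beside the metallothionein repeat, which carries a partial copy, YHR054C, with 4, 22 and 1 counts. Reads shared between gene and copy could be split by the authors' counting, so the RSC30 values are uncertain.

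RSC4, RSC6 and RSC58 encode structural and histone-reading subunits, Rsc4 with bromodomains that bind acetylated histone H3. RSC4 (YKR008W, chromosome XI, 452201 to 454078) had 2 counts after ribo depletion and 0 in TAP and CIP/TAP alike. Its tandem neighbour MEH1, a gene of the vacuolar EGO complex that ends 212 bp upstream, had 13546, 1169 and 1752 counts, far above those of RSC4 in each table. RSC58 (YLR033W, chromosome XII, 208761 to 210269) had 1, 3 and 0 counts. RSC6 (YCR052W, chromosome III, 214994 to 216445), related to the Snf12 subunit of SWI/SNF, had 57 counts after ribo depletion and 0 in either poly(A) library. RSC6 and RSC2 were the 2 members with at least 10 counts in ribo depletion and no count after poly(A) selection. The share of all identifiers with this pattern was not computed, so it is not read as a trait of RSC genes.

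RSC8 encodes a core scaffold subunit related to Swi3 of SWI/SNF (YFR037C, chromosome VI, 227513 to 229186, C strand). It had 2141 counts in ribo depletion, 400 in TAP and 263 in CIP/TAP. By table total these were 759 CPM (727 to 792), 463 CPM (418 to 510) and 240 CPM (212 to 270), a descending order in which no intervals overlapped. RSC8 ranked 189th among all identifiers in ribo depletion, 346th in TAP and 544th in CIP/TAP. Of 368 other identifiers with a divergent neighbour 143 to 243 bp away, 86.7%, 75.3% and 62.0% had fewer counts. Of these identifiers 49 had more counts than RSC8 in ribo depletion, 90 in TAP and 140 in CIP/TAP.

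RSC9 encodes a DNA-binding subunit with an ARID-like domain (YML127W, chromosome XIII, 17064 to 18809, W strand). It had 5937 counts in ribo depletion, 331 in TAP and 770 in CIP/TAP, or 2104 CPM (2051 to 2158), 383 CPM (343 to 426) and 702 CPM (653 to 753). It ranked 79th of all identifiers in ribo depletion, 394th in TAP and 226th in CIP/TAP. Among 275 other identifiers with a divergent neighbour 337 to 437 bp away, the median count was 35 in ribo depletion, and 9 had more counts than RSC9. In TAP 47 of them had more, and in CIP/TAP 29.

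The order of the members differed between tables. In ribo depletion it ran RSC9, RSC8, RSC2, RSC6 and STH1, each interval clear of the next, and the interval of STH1 overlapped that of RSC3. In TAP it ran RSC8, RSC9, STH1, RSC30 and RSC58, with overlapping intervals for RSC8 (418 to 510 CPM) and RSC9 (343 to 426 CPM). In CIP/TAP it ran RSC9, RSC8, STH1 and RSC30, each interval clear of the next, and the 6 other members were at 0.

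**Figure D2:**
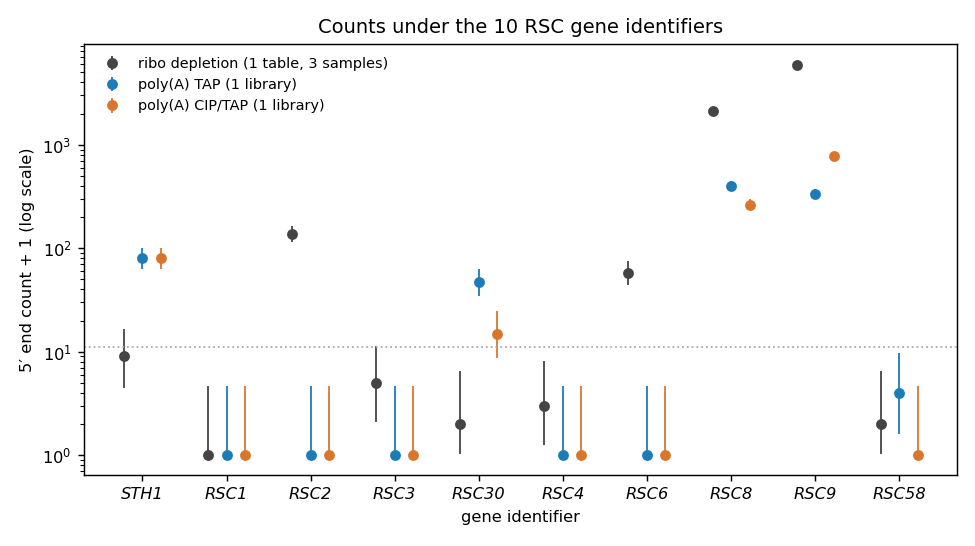
Counts of 5′ ends under the 10 RSC identifiers (vertical axis, count + 1 on a log scale), with 1 point per table and exact Poisson 95% intervals as bars. The dotted line marks 10 counts. RSC8 and RSC9 lie above it in all 3 tables, STH1 and RSC30 in TAP and CIP/TAP, and RSC2 and RSC6 in ribo depletion.

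The 3 members with a divergent neighbour were compared with that neighbour inside each table, a measure that needs no scaling between tables. RSC8 starts 193 bp from IRC5, a gene for a Snf2-family ATPase, which had 795 counts after ribo depletion, 1306 in TAP and 1638 in CIP/TAP. RSC8 held 72.9% of the pair's counts in ribo depletion (71.3 to 74.5%), 23.4% in TAP (21.5 to 25.5%) and 13.8% with CIP/TAP (12.3 to 15.5%). The pair thus changed which identifier was higher. The RSC8 count was 2.69 times that of IRC5 in ribo depletion, and IRC5 was 3.27-fold higher in TAP and 6.23-fold higher in CIP/TAP.

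RSC9 starts 387 bp from MSC1, which had 329, 328 and 536 counts. RSC9 held 94.7% of that pair's counts in ribo depletion (94.2 to 95.3%), 50.2% in TAP (46.3 to 54.1%) and 59.0% with CIP/TAP (56.2 to 61.6%). Both were level in TAP, while RSC9 was 18.0-fold higher in ribo depletion. The MSC1 counts were nearly equal in ribo depletion and TAP at different table totals.

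STH1 starts 347 bp from RRT14, a gene with a nucleolar product, which had 9, 53 and 0 counts. The interval for the STH1 share ran from 22.98 to 72.2% in ribo depletion, where the pair had 17 counts in all. STH1 held 59.8% in TAP (51.0 to 68.3%). In CIP/TAP all 79 counts of the pair were under STH1 (95.4 to 100%), at least 26.3-fold more than RRT14 when a count of 0 is set at the floor of 3 counts. The two-sided interval of the share is the wider limit. STH1 had the same count in TAP and CIP/TAP, and the count that differed was that of RRT14.

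The size of these changes was set beside all divergent pairs within 500 bp that had at least 50 summed counts in every table, 505 of 694. The STH1 pair had too few counts in ribo depletion to be among them. From ribo depletion to TAP the RSC8 to IRC5 ratio changed 8.78-fold and the RSC9 to MSC1 ratio 17.9-fold, against a median change in either direction of 4.49-fold over the 505 pairs. Larger changes were seen in 33.3% of pairs for RSC8 and 23.4% for RSC9, so neither was extreme. A switch of the higher identifier between ribo depletion and both poly(A) libraries, as at RSC8 and IRC5, was seen in 81 pairs (16.0%). From TAP to CIP/TAP the changes were 1.91-fold at RSC8 and 1.42-fold at RSC9, with a median of 1.84-fold over all pairs.

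**Figure D3:**
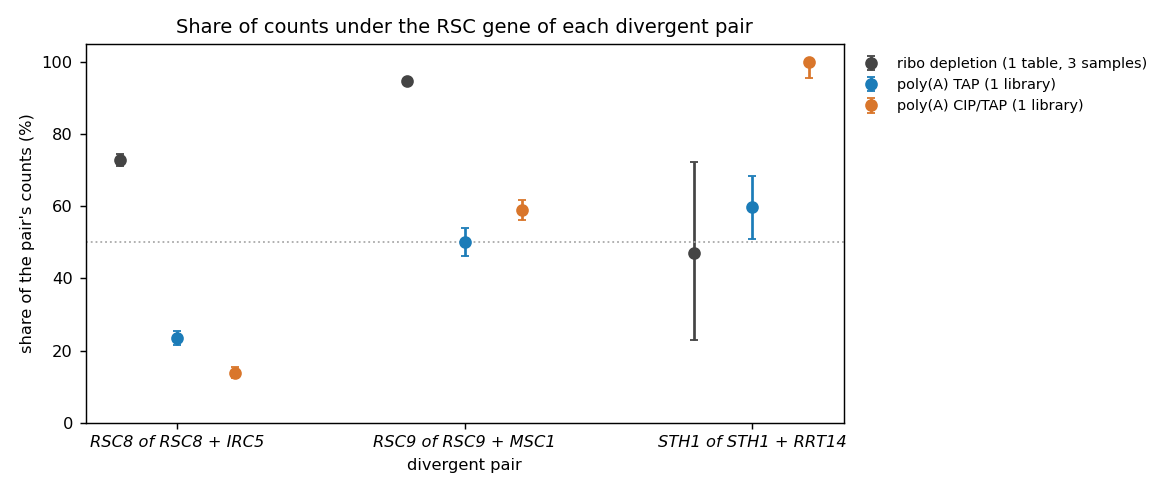
Share of a divergent pair's counts that lay under the RSC gene (vertical axis, percent), for 3 pairs and 3 tables, with exact binomial 95% intervals as bars. The RSC8 share was above 50% in ribo depletion and below it in both poly(A) libraries, and the STH1 share was 100% in CIP/TAP.

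TAP against ribo depletion set tailed RNA beside RNA from which ribosomal RNA had been taken out. Ratios were scaled with TMM factors, which assume that most identifiers do not change, and were given for the 5 members with at least 50 counts over both tables. Of these, STH1 was at least 2-fold higher in TAP and RSC2, RSC6, RSC8 and RSC9 at least 2-fold lower, RSC8 not under every scaling. RSC2, RSC6 and STH1 passed the minimum only through the table where they are high, so a large ratio was fixed by the minimum, and the count and median over the 5 members support nothing. RSC30, with 46 counts in TAP and 1 in ribo depletion, ran the way of STH1 and fell short of the minimum with 47 counts. With a minimum of 10, 2 members were higher and 4 lower, beside 1100 and 859 of 2547 identifiers. With none, 3 members were higher and 6 lower, beside 1486 and 1118 of 3232 identifiers. The members added by dropping that minimum rest on under 10 counts over both tables. Of the 1646 identifiers that could be measured, 31.9% passed 2-fold upward and 38.0% downward. The assumption behind the TMM factors was thus not borne out, and the ratios depend on the scaling.

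STH1 was at log2 3.65 (2.68 to 4.99), or 12.5-fold higher. RSC9 was at −3.74 (−3.91 to −3.58), 13.4-fold lower, and RSC8 at −2.00 (−2.16 to −1.84), 3.99-fold lower. Against 0 counts in TAP, RSC2 was at least 34.1-fold lower by the floor, with a two-sided interval up to log2 −4.77. RSC6 was at least 14.2-fold lower, with an interval up to −3.48. The median of the 5 members was −3.74, also with RSC2 and RSC6 at their bounds, and that of all identifiers measured was −0.18. The scale of this comparison depended on the method: with total counts the median of all identifiers moved by 1.28 and the higher share of all calls from 45.6% to 69.0%. Under total counts RSC8 was at −0.71, short of 2-fold, while STH1, RSC9, RSC2 and RSC6 kept their direction and their 2-fold difference. For STH1, RSC2 and RSC6 that is no support, because the minimum had fixed a large ratio.

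CIP/TAP against ribo depletion used the same ribo depletion table, so its values are not independent of the preceding ones. The same 5 members were measured, RSC2, RSC6 and STH1 again only through the table where they are high. STH1 was higher and the 4 others lower, where 36.4% of 1700 identifiers passed 2-fold upward and 35.6% downward. The assumption behind the TMM factors was not borne out here either. STH1 was at log2 3.53 (2.56 to 4.87), RSC8 at −2.71 (−2.91 to −2.53) and RSC9 at −2.64 (−2.75 to −2.53). RSC2 was at least 36.9-fold lower by the floor (two-sided interval up to log2 −4.89) and RSC6 at least 15.3-fold lower (up to −3.59). RSC8 and RSC9, which differed in their ratios for TAP, were close to each other here. The median of the 5 members was −2.71, and that of all identifiers measured was 0.02. Total counts moved the latter by 1.05 and the higher share of all calls from 50.6% to 68.8%, and all 5 members stayed past 2-fold in the same direction. For RSC2, RSC6 and STH1 that is no support, because the minimum had fixed a large ratio.

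CIP/TAP against TAP addressed which 5′ ends depend on phosphates of uncapped RNA. Of 4 members measured, RSC9 was higher and RSC30 lower by at least 2-fold, where 22.2% of 1679 identifiers passed that limit upward and 15.6% downward. RSC9 was at log2 1.03 (0.85 to 1.22), at the edge of the 2-fold rule, and fell short of it with total counts (0.87) and under upper-quartile scaling (0.83). RSC30, with 14 counts against 46, was at −1.86 (−2.88 to −1.01). RSC8 was at −0.79 (−1.02 to −0.56), 1.73-fold lower, and STH1, with 79 counts in each library, at −0.18 (−0.65 to 0.29). The interval of STH1 alone included 0. The median of the 4 members was −0.49, and that of all identifiers measured was 0.16.

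**Figure D4:**
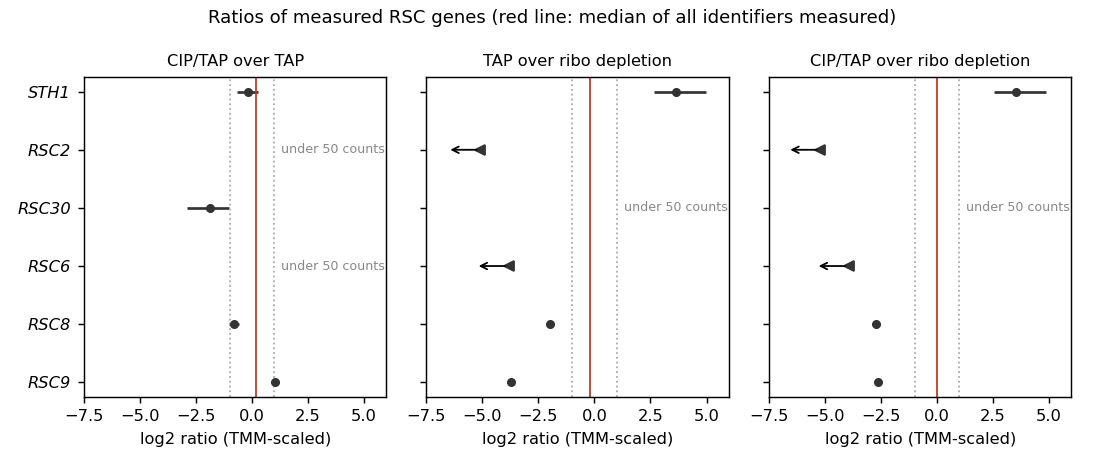
Log2 ratios of TMM-scaled counts (horizontal axis) for the RSC genes measured in 3 comparisons, with exact 95% intervals as bars. Triangles with arrows are bounds against a count of 0, dotted lines mark 2-fold and the red line is the median of all identifiers measured. Against ribo depletion STH1 lies to the right and RSC2, RSC6, RSC8 and RSC9 to the left in both comparisons.

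The 7 other genes of the complex were read in the same way. HTL1, which encodes a small subunit (YCR020W-B), had 45099 counts after ribo depletion, 2704 in TAP and 3756 in CIP/TAP, more than the 10 members together in each table. RTT102, shared with SWI/SNF, had 228, 60 and 177 counts. ARP7, an actin-related subunit also shared with SWI/SNF, had 488, 1 and 30, and its partner ARP9 had 0, 26 and 1. LDB7 had 0, 25 and 0 counts, SFH1, the relative of the SWI/SNF gene SNF5, had 0, 0 and 2, and NPL6 was at 0 in every table.

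Like RSC8 and RSC9, HTL1 was lower in TAP than in ribo depletion, at log2 −3.64 (−3.69 to −3.58). ARP7 was at −7.93, with 1 count in TAP and an interval of −13.82 to −6.02, and RTT102 at −1.495 (−1.94 to −1.09), or −0.21 with total counts. ARP7 passed the minimum only through ribo depletion, where it is high, here and in the next comparison. Its large ratios therefore support nothing. For CIP/TAP against ribo depletion HTL1 was at −3.28 (−3.33 to −3.23) and ARP7 at −3.69 (−4.30 to −3.18). RTT102 was at −0.06 there, an interval of −0.35 to 0.23, and 0.998 with total counts. For CIP/TAP against TAP, RTT102 was at 1.37 (0.95 to 1.83) and HTL1 at 0.29 (0.22 to 0.36). ARP9 and LDB7, with 26 and 25 counts in TAP and 0 in ribo depletion, ran the way of STH1 in TAP but were under the minimum of 50.

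Most counts of the 17 subunit genes lay under those with a close divergent neighbour. The 6 with a divergent neighbour within 500 bp, RSC8, RSC9, STH1, RTT102, HTL1 and LDB7, held 98.7% of the complex's counts in ribo depletion, 97.9% in TAP and 99.1% in CIP/TAP. HTL1 alone held 83.4%, 73.6% and 73.8% of the counts in the same order. Without HTL1 the share of the class was 92.3%, 92.2% and 96.5%. The class's share of counts over all identifiers was not computed, so these shares are not read as a trait of RSC genes. Over all identifiers its median counts were 92, 88 and 109, against 0 in each table for the tandem class. At least 10 counts were found for 4, 6 and 5 of these 6 genes, with the tables in the same order, and for 2, 2 and 1 of the 10 genes with a tandem neighbour. Over all identifiers 70.2%, 76.6% and 72.9% of the close divergent class had at least 10. In the tandem class, which takes in all distances, 17.1%, 22.5% and 18.2% did. These shares were near those of the subunit genes. ARP7, whose divergent neighbour HTS1 lies 505 bp away, was outside the window.

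**Figure D5:**
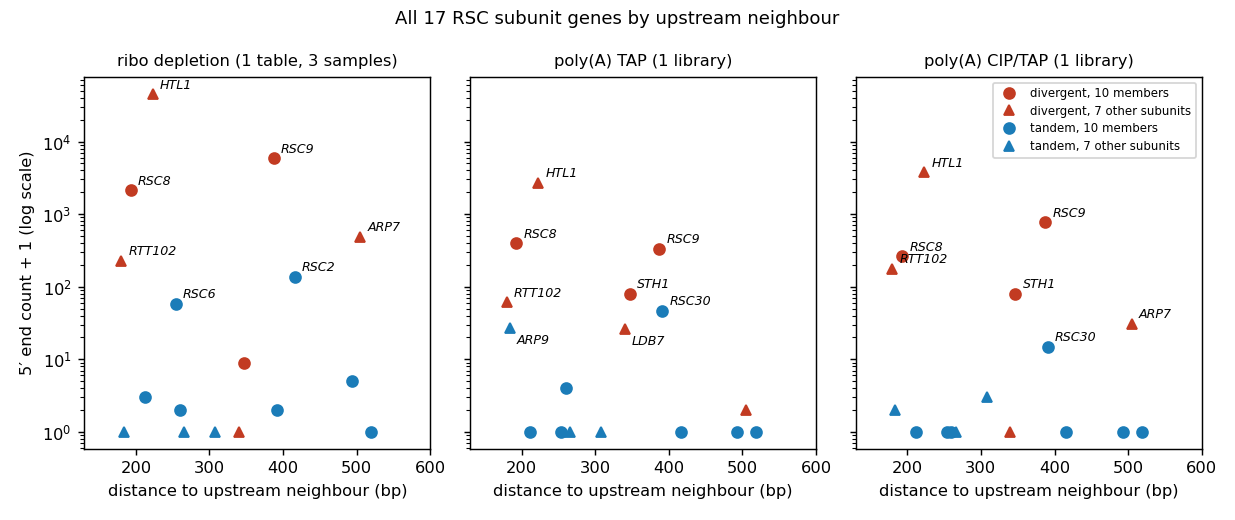
Counts of 17 RSC subunit genes (vertical axis, count + 1 on a log scale) against the distance to the upstream neighbour (horizontal axis, bp) in each table. Red marks divergent and blue tandem neighbours, circles the 10 members and triangles the 7 other subunits. HTL1, RSC9 and RSC8, all red, have the highest counts in each table.

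Genes of other remodellers gave summed counts below those of RSC in ribo depletion, where the 10 members summed to 2937 CPM. RSC9 and RSC8 held 97.5% of that sum, and the lists differ in size. Median counts in ribo depletion were 6 for the RSC members, 0 for SWI/SNF and 2 for ISWI and CHD1. In TAP they were 1.5, 0 and 11 in the same order, and in CIP/TAP each was 0. The sums therefore do not rank the complexes. The 9 SWI/SNF genes not shared with RSC summed to 550 CPM in ribo depletion, 1183 in TAP and 597 in CIP/TAP, against 994 and 1026 CPM for the RSC members in TAP and CIP/TAP. SNF5 was the highest of them in ribo depletion with 792 counts and SNF12 in both poly(A) libraries with 598 and 371, while SNF6, SNF11, SWI1, SWI3 and TAF14 were at 0 in every table. The 7 genes for ISWI subunits and CHD1 summed to 248, 267 and 219 CPM, most of it in ISW1 with 539, 174 and 229 counts. The promoter-binding factor genes RAP1, ABF1, REB1 and CBF1 summed to 31.2, 35.9 and 39.2 CPM, and ABF1 and REB1 were at 0 in all 3 tables.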

How the data were processed

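Raw read counts, 1 whole number for each identifier, make up the tables the authors deposited, per the file headers. Per the submitters' processing notes, bcl2fastq, BWA 0.6.2, bedtools, featureCounts and the build sacCer3 were used, with no role or order. No source used here says how the 3 ribo depletion samples were combined.

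Of 5797 identifiers, 5794 matched the R64 gene table, the assembly that sacCer3 names. The W or C in a systematic name gave the strand, and distances are the bases between annotated genes. Each pair of tables was scaled with TMM factors (edgeR 4.0.16, R 4.3.3). Ratios are log2 with 0.5 added to each count, for identifiers whose counts in the pair summed to at least 50, and 2-fold was the rule for a call. Intervals are exact (Clopper-Pearson or Poisson, 95%; scipy 1.17.1, Python 3.11.15). Without molecular identifiers, intervals and the floor of 3 counts cover counting error only. The calculation was tested on simulated data for CIP/TAP against TAP only. In that simulation a small part of the identifiers changed, all of them upward. It therefore does not bear on the ratios against ribo depletion, where most identifiers passed 2-fold.

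The members and lists were chosen with earlier results of these data known. All 10 members, their upstream neighbours, the partial copy of RSC30 and the other RSC subunits were named, and the extremes of each list of other remodellers. The RSC2 overlap, pair changes and classes by distance were added after values were seen. Promoter motifs and protein identity, planned at first, were not analysed here. Scaling by total counts, upper quartile or DESeq2 1.42.0 size factors, minima of 10, 200 or none, and 5 added counts were the alternatives.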

Additional observations from a re-analysis of the deposited data

How the results depend on the processing

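For CIP/TAP against TAP, 2 members were past 2-fold, and 1 with total counts, with upper-quartile scaling or with a minimum of 200 counts. With that minimum 2 members were left and their median turned from −0.49 to 0.12. With none, 3 members were past 2-fold (1 higher, 2 lower) and the median was −0.79. For TAP against ribo depletion, 5 members were past 2-fold (1 higher, 4 lower), 4 with total counts (1 and 3), 6 with a minimum of 10 (2 and 4), 2 with a minimum of 200 (0 and 2) and 9 with none (3 and 6). Their median of −3.74 became −2.46 with total counts, −3.37 with upper-quartile scaling, −2.87 with a minimum of 10 or 200, −2.00 with none and −3.21 with 5 added to each count. In the comparison of CIP/TAP with ribo depletion, 5 members (1 higher, 4 lower) became 6 with a minimum of 10 (2 and 4), 2 with a minimum of 200 (0 and 2) and 9 with none (2 and 7), and the median of −2.71 became −1.66 with total counts. Against ribo depletion most identifiers also passed 2-fold under every minimum. For TAP, 1100 were higher and 859 lower of 2547 with a minimum of 10. With 200 these were 206 and 483 of 1023, and with none 1486 and 1118 of 3232. For CIP/TAP, a minimum of 10 gave 960 and 876 of 2370. With 200 these were 270 and 461 of 1077, and with none 1350 and 1183 of 3113. The minima changed which members were measured and no member's ratio. In ribo depletion 4 members had at least 10 counts and 9 had at least 1. Of the single members' ratios recomputed with another scaling or 5 added counts, 45 stayed inside the member's own 95% interval and 11 left it, and none changed sign. For RSC2, RSC6 and STH1 against ribo depletion the minimum had fixed a large ratio. Their unchanged sign therefore supports nothing. No paired analysis was possible because the ribo depletion replicates share 1 table and the other groups have 1 library each, and no replicate could be left out for the same reason. RSC1, RSC3, RSC4 and RSC58 each had under 10 counts in every table, and the reason for these low counts was not tested.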
